A study of Rattus norvegicus with 7 samples.

Results

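The comparison set 1 array of rat hippocampal astrocytes kept for 24 h with grape seed extract at 10 µg/ml against 1 array of the same kind of culture without extract (0 µg/ml). These are 2 of the 7 arrays of the study, chosen by the cell type and dose in their labels. Grape seed extract is a plant preparation rich in polyphenols. Both cultures were primary hippocampal cells of Wistar rats labelled as 17 days old, kept in DMEM with glutamine, the N1 supplement, penicillin and streptomycin, and no other agent is given. The other arrays were astrocytes at 1 and 100 µg/ml and hippocampal neurons at 0, 1 and 10 µg/ml, from the same strain, age label, medium and time. How many animals or cultures stand behind an array is not given in the sources used here. With 1 array a side no value has an error and no test is possible, so every difference is a size. Their number also limits the precision, and a difference between these arrays may be one between cultures and not between doses.

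Astrocytes respond to microbial products and to cytokines such as interleukin-1 and tumour necrosis factor through NF-kB, a transcription factor held in the cytoplasm by the inhibitor IkB-alpha (gene Nfkbia), which NF-kB itself induces. Its targets include chemokines, which attract leukocytes, interleukins and adhesion molecules. Interferons act through STAT and IRF proteins, which bind interferon-stimulated response elements (ISRE) and induce antiviral proteins and the machinery of class I antigen presentation. AP-1, a dimer of Fos and Jun family proteins, acts on many of the same genes.

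Matches to a fixed letter pattern for each of these factors are shown in the promoters of 8 genes that were at least 2-fold higher at 10 µg/ml. All 8 hold a match, so they are examples and do not stand for the higher genes as a whole. Other higher genes, among them Ptgs2, Gch1, Cx3cl1, Irf1, Mx1 and Icam1, held no match to any of the motifs below. Each sequence is the 250 bases before the gene's annotated start, from RefSeq on the GRCr8 assembly, written 5′ to 3′ along the gene's strand, and capitals mark every match, on either strand, to 1 of 3 motifs. The NF-kB motif is GGG, any 2 bases, TT, any base and CC. The ISRE motif is GAAA, any 2 bases and GAAA. The AP-1 motif is TGANTCA, where N is any base. Stretches that differ from these letters are not marked, such as gggaaattcc in the Cxcl10 sequence. A promoter without a match may therefore still hold a related site. The AP-1 letters read the same on both strands, and overlapping matches are shown as 1 run. The first 3, for Il6 (chr4:5894576-5894825, minus strand), Cxcl2 (chr14:17467256-17467505, minus strand) and Ccl20 (chr9:91836909-91837158, plus strand), hold NF-kB matches and no ISRE match. The next 3, for Cxcl10 (chr14:15988816-15989065, plus strand), Rsad2 (chr6:48788121-48788370, minus strand) and Gbp2 (chr2:234005477-234005726, plus strand), hold an ISRE match and no NF-kB match, and those of Cxcl10 and Gbp2 also hold an AP-1 match. The last ones, for Vcam1 (chr2:206742784-206743033, minus strand) and Tap1 (chr20:4668544-4668793, minus strand), hold both an NF-kB and an ISRE match.
Il6: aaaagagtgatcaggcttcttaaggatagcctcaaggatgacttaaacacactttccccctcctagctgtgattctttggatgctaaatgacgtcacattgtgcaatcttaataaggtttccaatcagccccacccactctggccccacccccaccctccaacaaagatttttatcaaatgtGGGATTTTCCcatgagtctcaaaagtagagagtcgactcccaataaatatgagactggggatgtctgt
Cxcl2: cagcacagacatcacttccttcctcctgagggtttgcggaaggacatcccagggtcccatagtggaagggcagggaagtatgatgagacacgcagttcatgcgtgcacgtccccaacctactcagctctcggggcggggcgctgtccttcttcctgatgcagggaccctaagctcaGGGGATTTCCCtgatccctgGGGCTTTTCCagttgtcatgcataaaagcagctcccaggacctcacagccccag
Ccl20: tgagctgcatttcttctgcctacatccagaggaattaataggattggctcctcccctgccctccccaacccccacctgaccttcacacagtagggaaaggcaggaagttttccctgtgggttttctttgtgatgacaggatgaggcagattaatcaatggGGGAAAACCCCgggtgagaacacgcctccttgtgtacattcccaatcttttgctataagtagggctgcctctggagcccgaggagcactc
Cxcl10: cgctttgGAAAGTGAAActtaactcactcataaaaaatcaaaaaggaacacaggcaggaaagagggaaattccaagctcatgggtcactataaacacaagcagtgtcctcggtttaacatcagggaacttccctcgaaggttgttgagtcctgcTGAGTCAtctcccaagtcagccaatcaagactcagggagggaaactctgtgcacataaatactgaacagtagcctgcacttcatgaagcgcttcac
Rsad2: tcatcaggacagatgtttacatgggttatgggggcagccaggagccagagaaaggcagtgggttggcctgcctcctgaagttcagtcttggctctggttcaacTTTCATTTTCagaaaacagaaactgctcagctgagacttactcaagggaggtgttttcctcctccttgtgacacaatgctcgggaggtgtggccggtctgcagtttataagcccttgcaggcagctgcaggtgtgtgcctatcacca
Gbp2: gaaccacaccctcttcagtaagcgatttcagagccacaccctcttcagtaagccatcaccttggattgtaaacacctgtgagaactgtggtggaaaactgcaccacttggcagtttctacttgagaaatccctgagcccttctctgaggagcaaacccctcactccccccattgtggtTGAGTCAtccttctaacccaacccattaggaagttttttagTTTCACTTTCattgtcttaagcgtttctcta
Vcam1: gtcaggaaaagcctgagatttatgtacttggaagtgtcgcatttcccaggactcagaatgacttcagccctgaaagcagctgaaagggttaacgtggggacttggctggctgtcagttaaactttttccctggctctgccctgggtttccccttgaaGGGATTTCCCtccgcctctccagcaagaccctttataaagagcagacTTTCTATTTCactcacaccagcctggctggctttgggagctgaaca
Tap1: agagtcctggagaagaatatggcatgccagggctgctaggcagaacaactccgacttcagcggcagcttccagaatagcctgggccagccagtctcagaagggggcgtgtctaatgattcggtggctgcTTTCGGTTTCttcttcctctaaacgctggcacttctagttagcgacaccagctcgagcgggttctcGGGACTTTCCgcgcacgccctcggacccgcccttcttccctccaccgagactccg

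The NF-kB match of Il6 began 68 bases before the start and those of Cxcl2 began 74, 73 and 54 bases before it. In Ccl20, matches on the opposite strand lay at 90 and 89 bases. The ISRE match began 243 bases before the start in Cxcl10, 147 in Rsad2 and 31 in Gbp2. In Vcam1 the NF-kB match lay at 93 and the ISRE match at 46 bases, and in Tap1 they lay at 55 and 121 bases. RefSeq entries were at hand for 93 of the 119 genes at least 2-fold higher and 45 of the 61 at least 2-fold lower. Of those 93, 8 (8.6%) held the NF-kB letters, 8 (8.6%) the ISRE letters and 11 (11.8%) the AP-1 letters in this window. Among the 25 with an entry that were at least 4-fold higher, 5 (20.0%) held each of the motifs. The shares were 4.59%, 2.94% and 4.32% over the 2245 genes of the comparison with an entry, and 4.28%, 3.29% and 6.36% over all 27457 promoters in the table. Of the 45 lower genes 2 held the NF-kB letters, none the ISRE letters and 3 the AP-1 letters. Among them, Cyp26b1 held an AP-1 match 146 bases before its start. A match describes the sequence only and shows no binding, and no test of these shares was made.

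Signals are fluorescence intensities in arbitrary units on a linear scale, which the authors scaled to a common level on each array. Changes are log2 ratios of the array at 10 over the array at 0 µg/ml, with any signal under the 25th percentile (17.9) set to that floor. A gene was read from its brightest probe set and compared where its mean log2 signal over the 4 astrocyte arrays lay above the median of all signals (79.9). Of the 2695 genes that met this, 119 (4.42%) were at least 2-fold higher at 10 µg/ml and 61 (2.26%) at least 2-fold lower. Of the 4252 probe sets above the same limit, 183 (4.3%) were higher and 94 (2.21%) lower. The higher side reached farther: 36 genes exceeded the untreated signal 4-fold or more and 18 of them 8-fold or more, while 11 and 2 genes lay that far below it. The median signal of the higher genes was 224.9 untreated and 817 at 10 µg/ml, and that of the lower genes 342 and 114. The excess of higher over lower calls depends on leaving out dim probe sets, since with no limit on signal 309 probe sets were at least 2-fold higher and 419 lower. Over all genes compared the median change was -0.10, with 1070 above 0 and 1623 below.

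**Figure D1:**
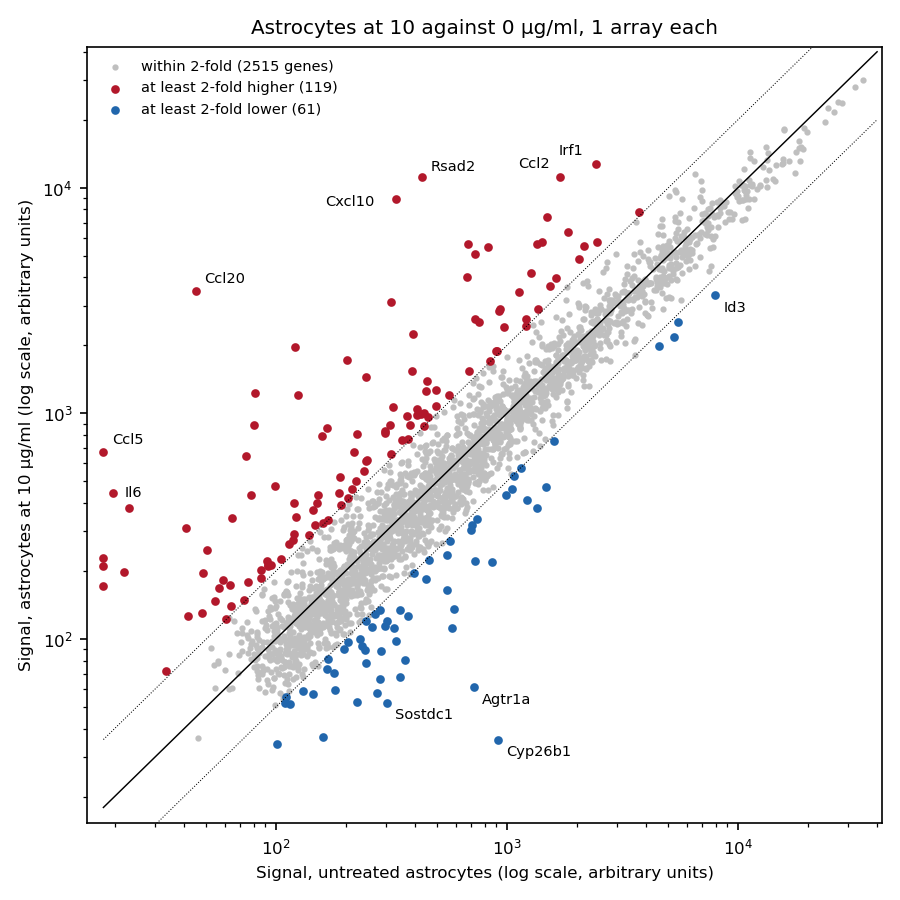
Signal of 2695 genes in astrocytes at 10 µg/ml (vertical, log scale, arbitrary units) against untreated astrocytes (horizontal, log scale), 1 point a gene and 1 array an axis, with signals under 17.9 drawn at 17.9. The solid line marks equal signals and the dotted lines a 2-fold difference; 119 red genes lie above that band and 61 blue genes below it, with Ccl20, Ccl5, Cxcl10, Rsad2 and Il6 farthest above and Cyp26b1 and Agtr1a farthest below.

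Fewer genes reached 2-fold in astrocytes at 1 µg/ml and in neurons, and more in astrocytes at 100 µg/ml. Astrocytes at 1 µg/ml, set against the same untreated array, had 26 genes (0.965%) at least 2-fold higher and 20 (0.742%) lower. Astrocytes at 100 µg/ml, again against that array, had 169 (6.27%) higher and 526 (19.5%) lower. In neurons, which have an untreated array of their own, 16 of these 2695 genes (0.594%) were higher and 22 (0.816%) lower at 10 µg/ml. The SD of the log2 change over the 4252 probe sets was 0.63 for astrocytes at 10 µg/ml, 0.37 for astrocytes at 1 µg/ml and 0.30 for neurons at 10 µg/ml.

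The culture held RNA of astrocytes and of other cells. Of 16 listed astrocyte markers 14 passed the signal limit. S100b, a calcium-binding protein of astrocytes, read 9085 and 7828 at 0 and 10 µg/ml, Slc1a3, the glutamate transporter GLAST, 3976 and 3946, and Aqp4, the astrocyte water channel, 567 and 499.9. None of the 14 was at least 2-fold higher and 3 were lower (Slc4a4, Gja1 and Id3), where the shares over all genes were 4.42% and 2.26%. The 14 had a median change of -0.18 and summed signals of 136580 and 122505. Markers of other cells were also read: the myelin protein Mbp at 3895 and 3378, the collagen Col1a2 at 16613 and 13110.3, the microglial protein Aif1 at 1636 and 1426 and the neuronal protein Map2 at 936 and 749. In such mixed RNA, fewer cells of a type and less RNA per cell cannot be told apart.

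Microglia, the brain's macrophages, make many of the same inflammatory products as astrocytes. Of 15 listed microglia and macrophage markers 12 were on the array and 8 passed the limit. Of these 8, 3 were at least 2-fold higher (4.42% of all genes were), with none lower and a median of 0.58 and summed signals of 16450 untreated and 27168 at 10 µg/ml. Cd14, the co-receptor for bacterial lipopolysaccharide, read 1488, 1922, 7418 and 8952 on the astrocyte arrays at 0, 1, 10 and 100 µg/ml. Fcgr2b, an inhibitory Fc receptor, read 248 and 618 at 0 and 10 µg/ml and the leukocyte tetraspanin Cd53 read 425 and 989. Others were within 2-fold: Aif1 differed by -0.20, the complement subunits C1qb by 0.30 and C1qc by 0.53, the protease Ctss by 0.17 and the lectin Lgals3 by 0.64. Much of the difference in the summed signals came from Cd14 and from Lgals3, which read 4672 and 7267. Csf1r, Itgam, Ptprc and Cx3cr1, other markers of the list, did not reach the limit. Csf1r and Itgam had highest signals of 19.7 and 13.7 untreated and 7.6 and 29.0 at 10 µg/ml. Those of Ptprc were 96.4 and 103 and those of Cx3cr1 93.3 and 51.2 at 0 and 10 µg/ml. The part of microglia in the results that follow was not tested.

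Chemokines had the largest changes. Of 23 listed genes 14 were on the array and 10 passed the limit. Of these 10, 9 were at least 2-fold higher (4.42% of all genes were), with none lower and a median of 3.19. In the order 0, 1, 10 and 100 µg/ml, Ccl20, which attracts dendritic cells and lymphocytes through CCR6, had signals of 45.1, 72.5, 3475 and 6884. Both upper doses stood far above the lower ones, and the change at 10 µg/ml was 6.27 or 77.0-fold. Ccl5, a chemokine for T cells and monocytes, read 7.1, 11.5, 671 and 561. Its untreated signal was under the floor, so it was at least 37.5-fold higher, and the array at 10 was the highest of the 4. Cxcl10, a ligand of CXCR3 induced by interferons, read 332, 547, 8879 and 3556, also highest at 10 µg/ml.

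Among the other chemokines, the neutrophil attractant Cxcl2 had signals of 81.0, 91.6, 1224 and 9014. Ccl3 read 315, 373, 3114 and 16708, and Ccl4, a related attractant of monocytes, read 202, 232, 1713 and 13859. These 3 were all highest at 100 µg/ml and near the untreated level at 1 µg/ml. Ccl2, the main monocyte attractant, read 1692, 3849.9, 11173 and 10477 and was already 3849.9 at 1 µg/ml. Cx3cl1, a membrane-bound chemokine whose receptor is found on microglia, read 726, 1078, 5105 and 1700.4, so its array at 10 µg/ml stood well above the other 3. Dimmer Cx3cl1 probe sets above the limit differed by 2.77 and 0.88. The dim B cell attractant Cxcl13 read 58.9, 110.2, 183 and 60.6, and the platelet chemokine Pf4, at 974 and 1045 for 0 and 10 µg/ml, was level. Of the 9 higher genes, 5 had their highest astrocyte signal at 10 and 4 at 100 µg/ml.

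**Figure D2:**
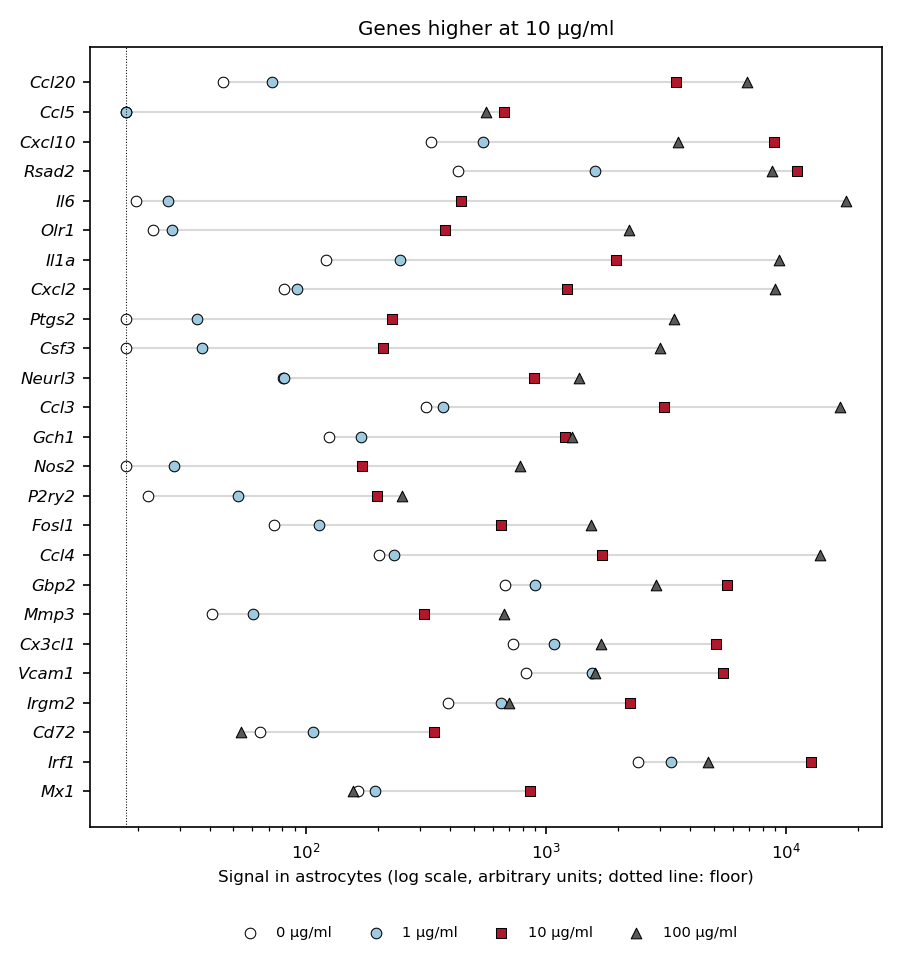
Signals of the genes with the largest differences above the untreated array at 10 µg/ml, or whose array at 10 µg/ml stood farthest above the other astrocyte arrays (horizontal, log scale, arbitrary units), 1 row a gene and 1 symbol an array (white circle 0, blue circle 1, red square 10, grey triangle 100 µg/ml). Signals under the floor of 17.9 are drawn on the dotted line. For Ccl20, Il6, Il1a, Cxcl2, Ccl3 and Ccl4 the triangle lies right of the square, and for Ccl5, Cxcl10, Rsad2, Gbp2, Cx3cl1, Vcam1, Irgm2, Cd72, Irf1 and Mx1 the square is rightmost.

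Most cytokines above the limit were also higher. Of 33 listed cytokines and growth factors 24 were on the array and 13 passed the limit. Of these 13, 8 were at least 2-fold higher and 1 lower (4.42% and 2.26% of all genes were), with a median of 1.28. Il6, the interleukin of the acute phase response, had signals of 19.6, 26.8, 442 and 17783, 22.6-fold higher at 10 than at 0 µg/ml. The array at 100 µg/ml lay far above even that value. Il1a, an alarm cytokine that acts on neighbouring cells, read 121, 247, 1958 and 9387, and its secreted relative Il1b 1419.7, 1701, 5766 and 12448. All 3 probe sets of Il1b were at least 2-fold higher, by 2.02, 2.18 and 2.39. Csf3, the granulocyte growth factor G-CSF, read 14.3, 37.0, 209 and 2998 and was at least 11.7-fold higher, its untreated signal being under the floor.

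Weaker members of the list had dim signals. Tnf, tumour necrosis factor, read 33.5, 6.2, 72.4 and 1465, so the array at 10 stood little above the dim untreated one. Inhba, the activin A subunit, had 54.7, 94.1, 147 and 1566, and Gdf15, a stress-induced relative of the TGF-beta family, 56.9, 28.6, 168 and 4197. These genes were brightest at 100 µg/ml. Il15, a growth factor of natural killer and T cells, differed: it read 120.1, 110.2, 291 and 16.8, highest at 10 and lowest at 100 µg/ml. Il18 read 629 and 995 at 0 and 10 µg/ml, within 2-fold. Cntf, a survival factor that astrocytes make, was the lower member, at 1055, 874, 459.9 and 545. Of the 8 higher cytokines 7 had their highest signal at 100 and 1, Il15, at 10 µg/ml. Ifnb1 and Ifng, the interferon genes read by the array, did not pass the limit, with highest signals of 32.7 and 9.8 untreated and 5.2 and 14.6 at 10 µg/ml. Csf3 and Tnf passed the limit through the array at 100 µg/ml: by the mean of the arrays at 0 and 10 µg/ml alone they dropped out and 6 cytokines were higher. Only 2 of the 8 higher cytokines stayed in the comparison when it was restricted to signals above the 75th percentile.

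Receptors for these ligands were mixed. Of 13 receptors and innate sensors that passed, 3 were at least 2-fold higher and 2 lower (4.42% and 2.26% of all genes were), with a median of 0.23. Besides Cd14, the higher ones were Cd40, a co-stimulatory receptor, at 152, 172, 433 and 696, and Tnfrsf1b, the second TNF receptor, at 63.0, 55.3, 173 and 196. The lower ones were Tnfrsf1a, the first TNF receptor, at 1480.1, 1803, 471 and 692, and Cxcr4, the receptor of Cxcl12, at 695, 590.2, 305 and 279. The 2 TNF receptors thus went opposite ways: Tnfrsf1a was bright on both lower doses and dimmer at 10 µg/ml, while Tnfrsf1b stayed dim throughout. Tlr4, the lipopolysaccharide receptor, read 187 and 163 at 0 and 10 µg/ml, the interferon receptor Ifnar1 155 and 297 and the shared cytokine receptor Il6st 687 and 1207, all within 2-fold.

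Most regulators of the NF-kB and C/EBP group above the limit were higher too. Of the 7 that passed the limit 5 were at least 2-fold higher (4.42% of all genes were), with none lower and a median of 1.36. Nfkbia, the NF-kB inhibitor, had signals of 668, 993, 4036 and 7897, and its 2 probe sets differed by 2.60 and 2.75. Cebpb, a transcription factor of inflammation, read 246, 367, 1445 and 3790.4. Zfp36, which destabilises cytokine mRNAs, read 934, 1136, 2903 and 7059, while a dimmer probe set of it above the limit differed by 0.72. These 3 stepped up from 1 to 10 and again to 100 µg/ml. Nfkb1, the p105 and p50 subunit of NF-kB, read 2157, 2099, 5534 and 4096, and the kinase Jak2 119, 137, 275 and 219.9, both highest at 10 µg/ml. Cebpd differed by 0.15.

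The interferon-response genes at least 2-fold higher at 10 µg/ml were brighter there than on any other astrocyte array. Of the 12 that passed the limit (47 listed, 15 on the array) 7 were at least 2-fold higher, against 4.42% of all genes, with none lower and a median of 1.12. All 12 were above 0 (1070 of all 2695 genes were), and each of the 7 had its highest astrocyte signal at 10 µg/ml. So had 62 of all 119 higher genes, which were chosen by that array. Rsad2, the antiviral enzyme viperin, had signals of 429.5, 1608, 11128 and 8749, and its 2 probe sets differed by 4.70 and 4.96. It was the one member already at least 2-fold higher at 1 µg/ml. Gbp2, a guanylate-binding protein, read 678, 903, 5654 and 2878, and Irgm2, a GTPase of defence against intracellular microbes, 393, 653, 2244 and 703. For both, the array at 10 µg/ml was clearly the brightest.

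Mx1, an antiviral dynamin-like GTPase, read 166, 194, 862 and 158, so the arrays at 0 and 100 µg/ml were alike and the array at 10 µg/ml stood alone. The transcription factor Irf1 read 2431, 3305, 12761 and 4719.7. Irf7, the regulator of type I interferon genes, read 435, 459, 999 and 442, with the same single high array. Mx2 had 205, 301, 421 and 150.3. The remaining 5 were within 2-fold: Oas1a, which makes the activator of RNase L, read 495 and 967 at 0 and 10 µg/ml, Stat2 543 and 714, and Ifitm3, a bright antiviral membrane protein, 6163 and 7347. In neurons at 10 µg/ml the same 12 genes had a median change of -0.60, ranging from -0.91 to 0.09, with none at 2-fold. Rsad2 read 338 and 187 in neurons at 0 and 10 µg/ml, Gbp2 625 and 354, Irf7 266 and 142 and Irgm2 451 and 262. The difference between the cell types was not tested.

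Some genes of class I antigen presentation were higher. Of 19 genes that passed, 3 were at least 2-fold higher (4.42% of all genes were), with none lower and a median of 0.31. Tap1, the peptide transporter, had signals of 757, 654, 2535 and 1920.3, and the immunoproteasome subunits Psmb8 and Psmb9 had 907, 789, 1887 and 1152 and 1205, 1359, 2427 and 1366. All 3 were brightest at 10 µg/ml, and Psmb9 lay at the edge of the limit, 2.01-fold. RT1-S3, a class I gene, was just outside it (592 and 1150 at 0 and 10 µg/ml, 1.94-fold). The class I light chain B2m read 7714 and 8582. Class II genes did not reach 2-fold, with changes of -0.28 for RT1-Ba, 0.69 for RT1-Da and 0.15 for Cd74. Probes for related RT1 genes may share signal, so these values are uncertain. After quantile normalization of the 7 arrays 1 gene of the list was at least 2-fold higher. Constitutive proteasome subunits were level, none of 19 reaching 2-fold, with a median of 0.09.

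Adhesion molecules for leukocytes included 4 of 11 that were at least 2-fold higher (4.42% of all genes were), with none lower and a median of 0.41. Vcam1, the ligand of the integrin VLA-4, had signals of 827, 1559, 5461 and 1609, and its 2 probe sets differed by 2.72 and 2.70. The array at 10 µg/ml exceeded those at 1 and 100 µg/ml, which were alike. Icam1, the ligand of LFA-1, had 1829.9, 2016, 6358 and 16694, instead brightest at 100 µg/ml. The hyaluronan receptor Cd44 had 368, 249, 973 and 841. Cd53 is also a leukocyte marker, given above. The integrin chain Itgb1 differed by -0.32 and the adhesion molecule Alcam by -0.62.

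A few genes of inflammatory mediators were higher, most of them from dim signals, while most members of their lists were within 2-fold. Ptgs2, the inducible cyclooxygenase, read 11.3, 35.4, 228 and 3404 and was at least 12.7-fold higher. It was the 1 of 9 prostaglandin and leukotriene genes at 2-fold (4.42% of all genes were higher). Ptgs2 and Nos2 passed the limit only through the array at 100 µg/ml. By the mean of the 2 compared arrays alone, no prostaglandin or leukotriene gene was higher and 1, the lipoxygenase Alox15, was lower. A second probe set of Ptgs2, below the signal limit, read 37.8 and 19.5. The constitutive enzyme Ptgs1 read 375 and 342 at 0 and 10 µg/ml. Of 10 genes of nitric oxide and tetrahydrobiopterin, 3 were at least 2-fold higher (4.42% of all genes were), with none lower and a median of -0.08. Nos2, the inducible nitric oxide synthase, read 11.6, 28.3, 172 and 784, at least 9.59-fold higher. Gch1, which makes the cofactor of that enzyme, read 125, 169, 1202 and 1286, and Slc7a1, an importer of its substrate arginine, 86.5, 85.3, 201 and 1064. All 3 had their highest signals at 100 µg/ml, although for Gch1 the upper doses were close. Dimmer probe sets of Nos2, below the limit, differed by 0.0, 0.11 and 1.41 at 10 µg/ml. Those of Gch1 differed by 2.18, 0.0 and -0.34. A second Slc7a1 probe set above the limit read 121 and 142 at 0 and 10 µg/ml, within 2-fold, and a dimmer one below the limit differed by -1.57. With the mean change over the probe sets above the limit, Slc7a1 was under 2-fold. The next enzymes of the cofactor pathway, Pts and Spr, differed by -0.51 and -0.07.

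Among 17 matrix proteases and inhibitors 2 were at least 2-fold higher (4.42% of all genes were), with none lower and a median of 0.13. Mmp3, stromelysin-1, had signals of 40.9, 60.4, 311 and 669, and Mmp9, gelatinase B, 158, 140.5, 792 and 3229.5. The membrane protease Mmp14 read 1825 and 3639 at 0 and 10 µg/ml, 1.99-fold and so just outside the limit. Timp1, an inhibitor of these enzymes, differed by 0.11. Complement and acute phase genes had no member of 13 at 2-fold, with a median of 0.10, and the highest was complement C3 at 5386, 5577, 9543 and 5791.

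Grape seed polyphenols are studied as antioxidants, so the 40 antioxidant and phase II genes that passed were counted: 4 were at least 2-fold higher and 1 lower, where the shares over all genes were 4.42% and 2.26%, with a median of 0.02. Hmox1, the haem-degrading enzyme, had signals of 1345, 1608, 5607 and 12871, and the mitochondrial superoxide dismutase Sod2, itself an NF-kB target, 312, 343, 888 and 1266. Gclm, a subunit of the enzyme that makes glutathione, had 148, 209, 320.2 and 138, and the carbonyl reductase Cbr1 457, 799, 961 and 477. Other Gclm probe sets above the limit were within 2-fold, differing by 0.11 and 0.57. The other genes of glutathione and quinone metabolism were near level: Nqo1 read 5332 and 7091 at 0 and 10 µg/ml, Gclc 132 and 134, Txnrd1 1507 and 1721 and Gstp1 9743 and 10198. Txnrd2 was lower by one probe set (345.8 and 133.8) and level by another (154 and 169). With the mean change over a gene's probe sets, the list had 2 higher genes and no lower one.

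Immediate early genes, which encode short-lived transcription factors, had 4 of 26 at least 2-fold higher and 1 lower, with a median of 0.40. The shares over all genes were 4.42% and 2.26%. Fosl1, a Fos relative in AP-1, had signals of 74.0, 113, 648 and 1538, Junb 389.8, 463, 1538 and 10108 and Atf3 444, 464, 1259 and 11436. Each was brightest at 100 µg/ml. Fos and Jun themselves read 428 and 530.1 and 1385 and 1649.9 at 0 and 10 µg/ml. Of 18 genes of endoplasmic reticulum stress 4 were at least 2-fold higher (4.42% of all genes were), with none lower and a median of 0.18. Besides Atf3, they were the phosphatase subunit Ppp1r15a (407 and 980.1), the pseudokinase Trib3 (47.7 and 129.6) and the chaperone Calr (2039.8 and 4833). Other probe sets of Calr above the limit differed by 0.93 and 0.07. With the mean change over a gene's probe sets Calr and Ppp1r15a were under 2-fold, leaving 2 genes of the list, and by the mean of the 2 compared arrays Trib3 did not pass the limit. Hspa5, the chaperone BiP, differed by 0.23. The heat shock list had no member of 15 at 2-fold, with a median of -0.26.

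**Figure D3:**
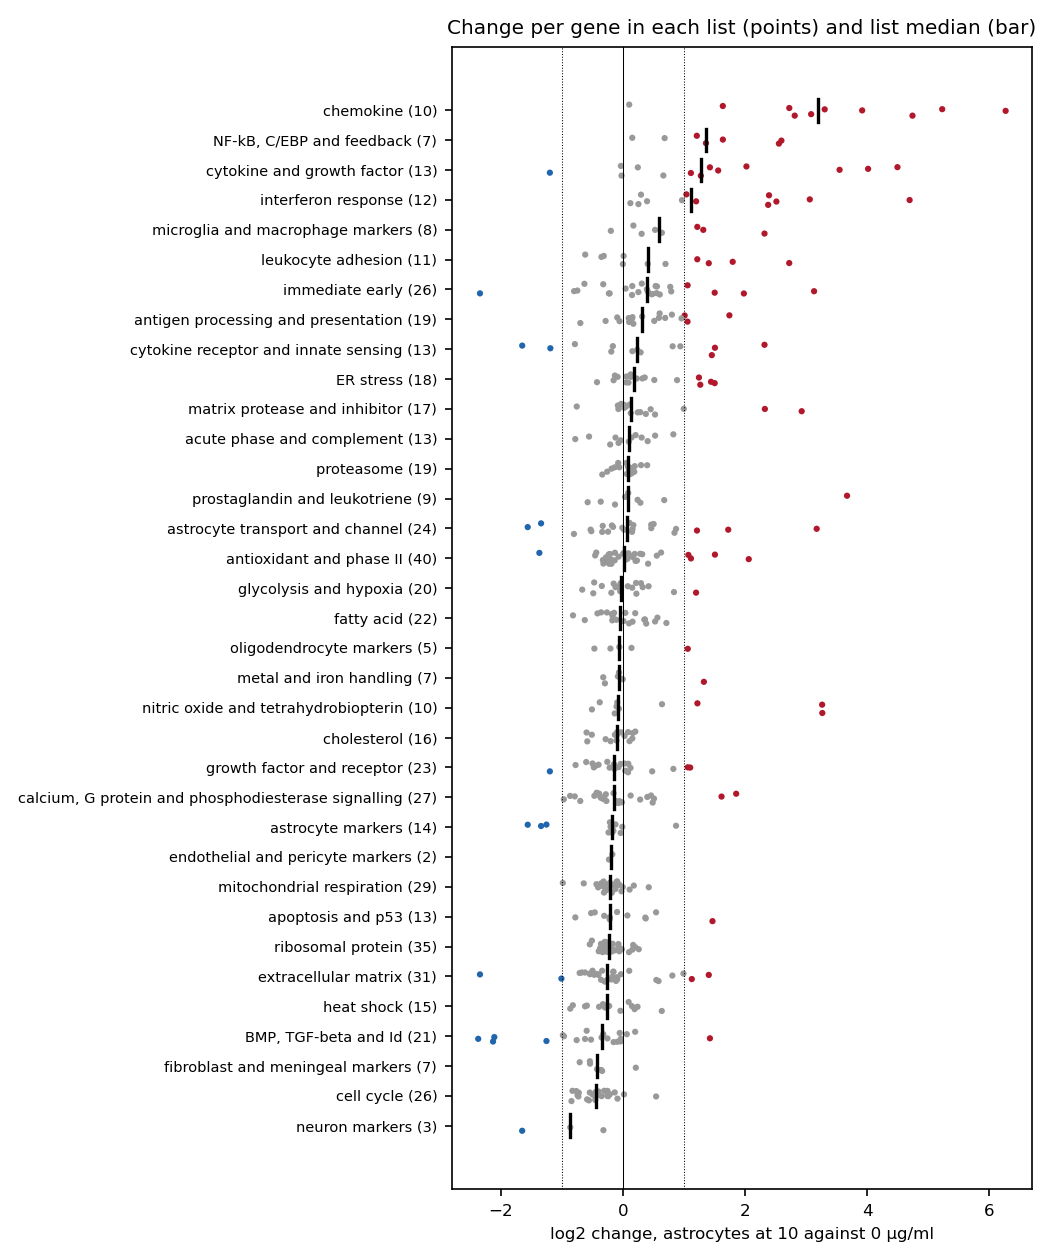
Log2 change of each gene that passed the signal limit (horizontal; points, red at least 2-fold higher, blue at least 2-fold lower, grey within) by gene list (vertical, number of genes in brackets), with the list's median as a black bar, on the arrays of astrocytes at 10 and 0 µg/ml. Chemokines (3.19), NF-kB and C/EBP regulators (1.36), cytokines (1.28) and interferon response (1.12) have the highest medians. The lowest are those of neuron markers (-0.86), cell cycle (-0.44), fibroblast and meningeal markers (-0.43) and BMP, TGF-beta and Id (-0.35), against -0.10 over all genes.

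Receptors and transporters of astrocytes differed in both directions. Of 24 that passed 3 were at least 2-fold higher and 2 lower (4.42% and 2.26% of all genes were), with a median of 0.06. P2ry2, a receptor for extracellular ATP and UTP, had signals of 22.0, 52.2, 198 and 252. By the mean of the arrays at 0 and 10 µg/ml alone P2ry2 did not pass the limit. The potassium-chloride transporter Slc12a7 read 322, 800.4, 1065 and 973, and so lay near its 10 µg/ml level already at 1 µg/ml. Adora2b, an adenosine receptor, read 239.7, 258, 555 and 399. On the lower side, the bicarbonate transporter Slc4a4 read 1216, 927, 412 and 274 and Gja1, the main gap junction protein of astrocytes, read a dim 144, 149.8, 57.0 and 75.6. Glul, which makes glutamine from glutamate, read 5035 and 9194 at 0 and 10 µg/ml. Olr1, a scavenger receptor for oxidised lipoprotein, was in no list and read 23.2, 27.8, 379 and 2219, 16.4-fold higher at 10 µg/ml. The phosphodiesterase Pde4b, which breaks down cAMP, read 725, 787, 2619.7 and 1356, brightest at 10 µg/ml. Gng5, a G protein subunit, read 923, 2922, 2825 and 3222: only its untreated array was low, and against the array at 1 µg/ml its change at 10 µg/ml was -0.05.

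The largest difference below the untreated array was that of Cyp26b1, the enzyme that degrades retinoic acid, with signals of 912, 676, 35.8 and 80.5. The signal at 10 µg/ml lay near the floor of 17.9 and that at 100 µg/ml just above the signal limit of 79.9, and the change at 10 µg/ml was -4.67, or 25.5-fold lower. Agtr1a, the type 1 receptor of angiotensin II, had 717, 525, 61.2 and 28.8, and all 4 of its probe sets were lower, by -1.66 to -3.55. The genes with the largest differences below also included 3 other receptors coupled to G proteins, a family that was not counted as a list. Gpr12 read 273, 237, 57.5 and 78.1, the thyrotropin-releasing hormone receptor Trhr 362, 292, 80.3 and 141 and the somatostatin receptor Sstr4 282, 228, 66.3 and 92.1. Each was below 150 on both upper doses and above 200 on both lower ones.

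Some antagonists and ligands of the BMP and TGF-beta family were lower. BMPs drive astrocyte formation through Smad proteins and the Id genes. Of 21 genes of this list that passed, 1 was at least 2-fold higher (Inhba) and 4 were lower, against 4.42% and 2.26% of all genes. The median was -0.35, with 18 below 0, where 1623 of all 2695 genes were. Fst, which binds activin, had signals of 579, 436, 112 and 245, and its second probe set differed by -2.48 against -2.37. Nog, the BMP antagonist noggin, read 159, 144, 36.9 and 53.2, and did not pass the limit by the mean of the arrays at 0 and 10 µg/ml alone. Tgfb3, a TGF-beta ligand, read 591, 620.2, 135 and 275. In all 3 the lowest array was that at 10 µg/ml. Id3, a target of BMP signalling, read 7938, 7073, 3329 and 1332, lowest at 100 µg/ml, and Id1 1381 and 816 at 0 and 10 µg/ml. Sostdc1, another BMP antagonist, was not on the list and read 301, 284, 52.2 and 146, lowest at 10 µg/ml. Bmp4 read 253 and 128 and the receptor Notch1 522 and 267 at 0 and 10 µg/ml, both just inside 2-fold. The activin subunit Inhba and its antagonist Fst thus lay on opposite sides. With signals restricted to those above the 75th percentile, 1 gene of the list was at least 2-fold lower and none higher.

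Some genes of the cytoskeleton and matrix were among the largest differences below the untreated array, while calls in the matrix list were balanced. Ccn1, a matrix protein induced by serum and stretch, had signals of 342, 291, 67.5 and 435, low at 10 µg/ml alone. Cnn1, the smooth muscle protein calponin, had 1349.6, 1103, 379 and 1184, with the same single low array. Krt19, a keratin, read 224, 188, 52.3 and 114. Of 31 extracellular matrix genes that passed 2 were at least 2-fold higher (Cd44 and Mgp) and 2 lower (Ccn1 and the syndecan Sdc2). The shares over all genes were 4.42% and 2.26%. The matrix list had a median of -0.26 and 24 genes below 0, where 1623 of all 2695 genes were. By their brightest probe sets Col1a1 read 6537 and 4488, Col3a1 14385 and 10705 and fibronectin Fn1 10438 and 7176 at 0 and 10 µg/ml, none of them at 2-fold. Dimmer Fn1 probe sets above the limit differed by -1.26 and -0.69. Collagens are also fibroblast markers: the 7 fibroblast and meningeal markers that passed had a median of -0.43 and summed signals of 48694 and 36033, none at 2-fold, and their part in the matrix list was not tested.

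**Figure D4:**
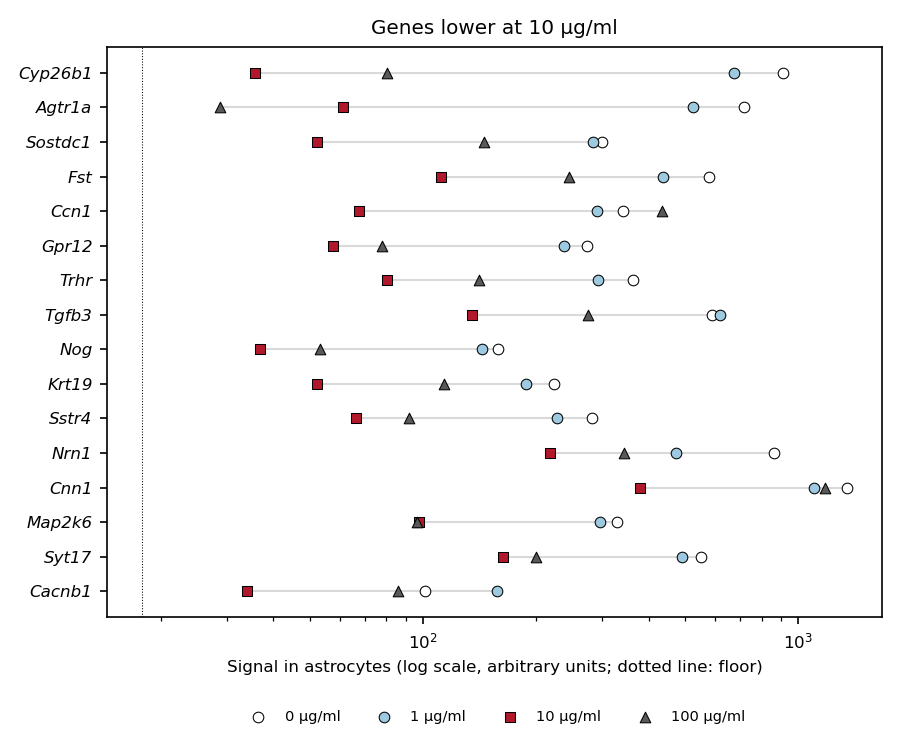
Signals of the genes with the largest differences below the untreated array at 10 µg/ml, or whose array at 10 µg/ml stood farthest below the other astrocyte arrays (horizontal, log scale, arbitrary units), 1 row a gene and 1 symbol an array (white circle 0, blue circle 1, red square 10, grey triangle 100 µg/ml); the dotted line is the floor of 17.9. The red square is leftmost for Cyp26b1, Sostdc1, Fst, Ccn1, Tgfb3, Nog and Cnn1, and the triangle is leftmost for Agtr1a.

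Nrn1, the neuritin gene, read 862, 473, 219 and 344, the stress kinase Map2k6 329.8, 296, 97.8 and 96.3 and the synaptotagmin Syt17 551, 490.1, 164 and 199.9. Nefm, a neurofilament subunit, read 245, 245, 77.9 and 106. Neuronal markers as a whole had 3 genes past the limit, all below 0, with Map2 at 936 and 749 and Gap43 at 303 and 166 for 0 and 10 µg/ml. Their summed signals were 1483 untreated and 994 at 10 µg/ml, and their part in the lower genes was not tested.

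Small shifts without any 2-fold change were seen in several housekeeping groups. Most genes compared lay below 0 in any case, 1623 of all 2695. Of 26 cell cycle genes none was 2-fold higher or lower, but 24 were below 0, with a median of -0.44 against -0.10 over all genes. Cdk1, the mitotic kinase, had signals of 234, 181, 138 and 59.6, and the replication genes Pold1 and Mcm5 had 212, 159, 118 and 20.2 and 153, 130.5, 91.5 and 33.8. Cdkn1a, the inhibitor p21, was above 0 at 429.7 and 626 for 0 and 10 µg/ml. Ribosomal protein genes had 30 of 35 below 0 and a median of -0.23, and mitochondrial respiration genes 26 of 29 and -0.21, with Ndufv2 the lowest at 3592 and 1814. Lists of cholesterol (median -0.10 over 16 genes), fatty acid (-0.05 over 22) and glycolytic genes (-0.04 over 20) lay near the overall median. Slc16a3, a lactate exporter, was the only gene of these lists at 2-fold, at 114 and 262, where 4.42% of all genes were higher. Of 13 apoptosis genes that passed, 1 was at least 2-fold higher (4.42% of all genes were) and none lower. It was Bid, a BCL2 family protein, at 296, 294, 817 and 402, highest at 10 µg/ml.

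The 119 higher and 61 lower genes were then read in neurons at 10 µg/ml. The higher genes had a median change of -0.15 there, from -1.98 to 1.14, with 1 at least 2-fold higher (Trib3) and 2 lower. The lower genes had a median of -0.01, from -1.34 to 1.20, with 1 higher and 1 lower. Over all 2695 genes the shares were 0.594% and 0.816%. The array for untreated neurons already had a Ccl20 signal of 1890, where untreated astrocytes had 45.1, and at 10 µg/ml it read 1610. Cxcl10 read 285 and 204 in neurons at 0 and 10 µg/ml, Il6 12.2 and 22.5, Cd14 1289 and 1111 and Vcam1 2657 and 2517. Agtr1a read 66.3 and 71.2 and Cyp26b1 141 and 141.

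**Figure D5:**
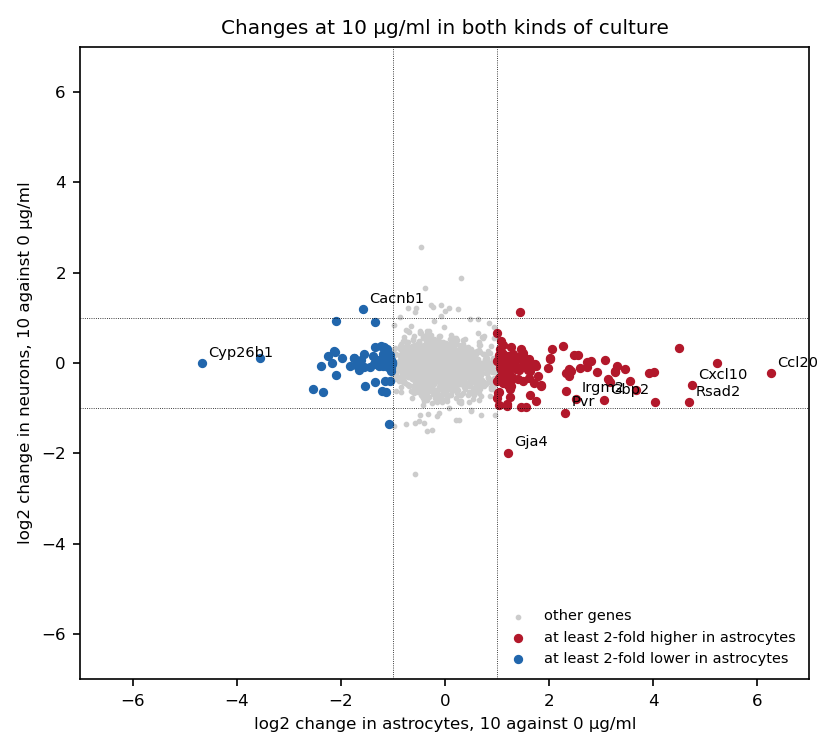
Log2 change at 10 against 0 µg/ml in neurons (vertical) and in astrocytes (horizontal) for the 2695 genes, each change from 1 array a side and each cell type with an untreated array of its own; dotted lines mark 2-fold. The red genes (at least 2-fold higher in astrocytes) have a median of -0.15 in neurons and the blue genes (at least 2-fold lower) one of -0.01, and Pvr, Gja4 and Cacnb1 lie past 2-fold in opposite directions.

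Among the 4 astrocyte arrays, 62 of the 119 higher genes had their highest signal at 10 µg/ml, 55 at 100 µg/ml and 2 at 1 µg/ml. Of the 61 lower genes 30 were lowest at 10 and 30 at 100 µg/ml. Since the genes were chosen by the array at 10 µg/ml, these orders are descriptions. In 96 of the higher and 50 of the lower genes, the signal at 1 µg/ml lay between those at 0 and 10 µg/ml. Slc22a5, a carnitine transporter, and Pdgfra, the receptor of platelet-derived growth factor A, were like Il15 at least 2-fold higher at 10 and at least 2-fold lower at 100 µg/ml. Slc22a5 had signals of 688, 718, 1542 and 303 and Pdgfra 3730.1, 4949.7, 7779.8 and 1232. The other Pdgfra probe sets lay below the limit and were not 2-fold higher: they read 24.3 and 29.1, 54.7 and 41.8, and 2.4 and 1.4 at 0 and 10 µg/ml. Pdgfra also marks oligodendrocyte precursors. Of 5 oligodendrocyte markers that passed it was the only gene at 2-fold (4.42% of all genes were higher). Mbp, Mag, Cnp and Mobp differed by -0.21, -0.47, 0.14 and -0.06. Cd72, a lectin of B cells and some myeloid cells, read 64.3, 108, 343 and 53.8, highest at 10 µg/ml.

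Several probe sets above the limit were available for 35 of the higher genes and 10 of the lower ones. All went the same way in 33 and 9 of them, and all reached 2-fold in 19 and 5. The exceptions were Gpd2 and Csnk2a1 among the higher genes and Txnrd2 among the lower. Of the 119 higher genes 25 had an untreated signal under the signal limit of 79.9, 4 of them under the floor. Of the 61 lower genes 18 were under that limit at 10 µg/ml, none under the floor.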

How the data were processed

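The authors isolated total RNA, amplified 100 ng of it in a 2-cycle procedure and hybridised biotin-labelled cRNA to Affymetrix rat arrays, per the labels' protocols. The deposited values are signal intensities on a linear scale, made by the authors with GCOS per the submitters' processing notes. Neither its version nor its settings are given in the sources used here, and detection calls were not used. On each of the 7 arrays the 2%-trimmed mean lay between 500.7 and 500.9, so the scaling was kept.

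Of 8799 probe sets 59 controls were left out. Symbols came from the platform annotation (7006 probe sets with 1 symbol, 308 with several and 1426 with none; probe sets with several or none were not named). Values were computed in Python 3.11.15 with pandas 2.3.3 and numpy 2.4.6. Low signals were raised to 17.9, which touched 23.2% to 27.2% of probe sets on an astrocyte array. The calculation of fold changes was checked on simulated data, with known changes in bright probe sets and less spread than the arrays had. That check does not measure the error of the real changes.

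Named were, per direction, the 15 largest changes, up to 10 bounds against the floor and the 6 genes whose array at 10 µg/ml stood farthest apart, then genes opposite at 10 and 100 µg/ml, the 4 largest changes of each of 35 gene lists, Cxcl10, Rsad2 and Il6. Further genes were picked with their values in view, as list members, markers or counterparts. The comparison, the lists and the rule were chosen with earlier results of these data known. Alternatives covered normalization, centring, floor, signal limit, probe sets of a gene and reference array.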

Additional observations from a re-analysis of the deposited data

Results flagged for a closer look

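Of the 119 genes at least 2-fold higher and 61 lower at 10 µg/ml in astrocytes, 3 were at least 2-fold apart the other way in neurons at the same dose. In the same direction, 1 was higher and 1 lower in both. Over all 2695 genes 0.594% were higher and 0.816% lower in neurons, so these counts are small and show no tendency to opposite changes. Each change rests on 1 array a side and the difference between the cell types was not tested. Pvr, the poliovirus receptor homologue, read 50.1 and 248 in astrocytes at 0 and 10 µg/ml (log2 change 2.31) and 114 and 53.4 in neurons (-1.10). Gja4, a connexin, read 92.0 and 212 in astrocytes (1.20) and 70.8 and 16.0 in neurons (-1.98), where its signal at 10 µg/ml was under the floor of 17.9. Cacnb1, a calcium channel subunit, read 101 and 34.1 in astrocytes (-1.57) and 67.8 and 156 in neurons (1.20). By the mean of the astrocyte arrays at 0 and 10 µg/ml alone Cacnb1 did not pass the signal limit. All 3 were dim, with no signal above 250 at these doses.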

How the results depend on the processing

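The limit on signal moved the counts most: 183 probe sets higher and 94 lower became 309 and 419 with no limit and 95 and 20 above the 75th percentile. Counted as genes, 114 were higher and 58 lower with 1 mean value per gene, against 119 and 61 by the brightest probe set. Of the cytokine list 2 genes were higher above the 75th percentile, where fewer genes are compared, against 8. The other alternatives kept the counts of probe sets and of cytokines within 1.5 times: against the array at 1 µg/ml 154 probe sets were higher and 83 lower, and the chemokine list had 7 to 10 and the interferon list 5 to 8 higher genes over all alternatives. Of 86 named genes at 2-fold, 84 stayed so after quantile normalization, 81 with the floor at the median signal and 73 against the array at 1 µg/ml, where 12 were under 2-fold and Gng5 turned from 1.61 to -0.049. Its untreated array alone was low, and the cause was not tested. Above the 75th percentile 45 stayed and 41 were not compared, while 79 stayed with the limit on the 2 compared arrays and 79 with 1 mean value per gene. Of 67 other counts of list members at 2-fold, 16 moved by over 1.5 times above the 75th percentile, 12 with no limit, 10 against the array at 1 µg/ml, 6 against the mean of 0 and 1 µg/ml and at most 4 under each other alternative. Higher calls were 66.1% of the total as scaled, 74.1% after centring and 70.2% after quantile normalization. No paired analysis was possible because each group has 1 array. Dim genes limit the result, since folds against a signal under the floor are bounds.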

Other observations

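Genes outside every list made up 51 of the 119 higher and 48 of the 61 lower genes, as 68 and 13 were in a list. Those given here were chosen after their values were seen, and all values are single arrays at 0, 1, 10 and 100 µg/ml. Neurl3, a ubiquitin ligase of the neuralized family, had signals of 80.7, 81.5, 889.7 and 1379, level at 1 µg/ml and high on both upper doses. Tbk1, the kinase that activates IRF3, read 218, 418, 672 and 197, Ripk3, the kinase of necroptosis, 120.2, 129, 402 and 687, and the RNA sensor Tlr7 91.6, 132, 222 and 93.8. Tbk1 and Tlr7 were brightest at 10 and Ripk3 at 100 µg/ml. Ampd3, an AMP deaminase, read 99.0, 181, 478 and 289.9, Mgll, which degrades an endocannabinoid, 189, 182, 522 and 566, and the drug efflux pump Abcb1b 451, 455, 1389.9 and 805.

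Among the lower genes, P2ry12, an ADP receptor of resting microglia, read 372, 288, 126 and 31.6 and Rgs18, a regulator of G protein signalling in myeloid cells, 284, 206, 88.6 and 2.0, both lowest at 100 µg/ml. They were lower while Cd14, Cd53 and Fcgr2b, other genes of myeloid cells, were higher. Myl9, a myosin light chain, read 5489.8, 5033, 2529 and 4009.6 and Cald1, caldesmon, 303, 319, 119.5 and 75.5. Acta2, the smooth muscle actin, was within 2-fold by its brightest probe set, at 1016, 1329, 867 and 978. Its probe sets disagreed: a dimmer one above the limit read 278 and 61.4 at 0 and 10 µg/ml (-2.18) and another differed by -0.425. Bright lower genes were few; Dab2, an endocytic adaptor, read 5278, 4727, 2183 and 1314 and Plpp1, a lipid phosphatase, 4538, 4586, 1984 and 1299.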
